A study of Mus musculus with 4 samples.

Results

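The genes described are Hmgb1 and Hmgn5, a pair of genes for small chromatin proteins of the high mobility group (HMG), measured in cultured primary keratinocytes of the mouse, the cells that build the epidermis. They were found as the 2 rows of the authors' deposited comparison tables whose gene symbol is exactly Hmgb1 or Hmgn5, and their values were then read on all 4 arrays. They are 2 of 22206 transcript clusters on the array, of which 3059 carry a single gene symbol in those tables. RNA of male mice was hybridised to Clariom S Mouse arrays, with 1 array per group and no replicate. The groups were HMGB1 KO keratinocytes with recombinant interleukin-4 (IL-4), wild-type (WT) keratinocytes with IL-4, untreated HMGB1 KO keratinocytes and untreated WT keratinocytes. IL-4, a cytokine of type 2 immune responses, was given at 100 ng/ml, and all cultures were kept for 12 h in EpiLife medium. K5-HMGB1 is the design text's name for the mutant line. Its construction, the age of the mice and any pooling of mice are not given in these sources. All 4 groups share sex, cell type and medium, and the untreated and IL-4 cultures of a genotype are not stated to come from different mice.

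HMGB1 binds DNA without much regard to sequence through its HMG boxes, bends it, and helps other proteins assemble on chromatin. Released from damaged or dying cells, it acts as an alarmin through receptors such as RAGE (gene Ager) and the Toll-like receptors TLR2 and TLR4. HMGN5 belongs to another branch of the HMG proteins, the HMGN family, which bind the nucleosome itself rather than bent DNA. In the mouse, HMGN5 has a long acidic tail, binds linker histone H1 and loosens compacted chromatin.

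Hmgb1 is a protein-coding gene on chromosome 5 (149046702 to 149053057 in GRCm38.p6, minus strand) and was measured by cluster TC0500003648.mm.2. RefSeq gives it 2 mRNAs, and the promoter table gives 2 start sites, at 149053057 and 149051616. Hmgn5 is a protein-coding gene on chromosome X (109004537 to 109013380, minus strand), measured by cluster TC0X00002853.mm.2, with 1 mRNA and a start site at 109013380. RefSeq also lists 13 pseudogenes named after Hmgb1, on 11 chromosomes, and none of them has a symbol in the deposited tables. Whether the Hmgb1 probes also bind transcripts of such copies was not tested.

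The promoters of both genes are shown because the arrays measured the transcripts that start there. No binding or methylation data were part of the study's files. Both genes matched the RefSeq table of build GRCm38.p6, with 3 windows of 300 bases. Each window runs 5′ to 3′ on the gene's strand, from 250 bases before the start site to 50 after, and the capitals mark each CCAAT box (CCAAT, or ATTGG where it lies on the other strand).
Hmgb1, start 1, chr5:149053008-149053307, minus strand: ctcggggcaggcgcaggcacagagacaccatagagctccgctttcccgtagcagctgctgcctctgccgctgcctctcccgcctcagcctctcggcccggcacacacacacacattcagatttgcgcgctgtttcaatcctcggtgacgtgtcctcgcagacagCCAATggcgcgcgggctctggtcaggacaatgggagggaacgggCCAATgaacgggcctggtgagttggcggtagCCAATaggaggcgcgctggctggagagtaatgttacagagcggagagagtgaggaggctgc
Hmgb1, start 2, chr5:149051567-149051866, minus strand: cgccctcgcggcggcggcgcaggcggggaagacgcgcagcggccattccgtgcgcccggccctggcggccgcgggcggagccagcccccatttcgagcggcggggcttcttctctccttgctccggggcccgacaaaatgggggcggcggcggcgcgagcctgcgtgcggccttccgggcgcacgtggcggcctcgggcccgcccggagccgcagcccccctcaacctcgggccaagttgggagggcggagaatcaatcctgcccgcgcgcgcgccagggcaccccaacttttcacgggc
Hmgn5, chrX:109013331-109013630, minus strand: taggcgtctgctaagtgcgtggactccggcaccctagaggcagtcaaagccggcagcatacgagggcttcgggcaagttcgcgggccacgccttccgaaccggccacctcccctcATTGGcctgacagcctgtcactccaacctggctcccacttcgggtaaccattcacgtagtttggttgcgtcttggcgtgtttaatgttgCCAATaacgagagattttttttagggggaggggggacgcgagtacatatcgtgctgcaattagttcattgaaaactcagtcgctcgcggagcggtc

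The first Hmgb1 window holds 3 CCAAT boxes, which begin 86, 42 and 11 bases before the start, and no GC box. Of all 32851 promoter windows of this length, 37.4% hold at least 1 CCAAT box and 3.37% hold 3 or more. The second Hmgb1 window holds no CCAAT box and 4 GC boxes (GGGCGG on either strand), and 5.49% of all windows hold 4 or more. The Hmgn5 window holds 2 CCAAT boxes, 1 on each strand, which begin 135 and 46 bases before the start. The G and C content is 63% in the first Hmgb1 window, 77% in the second and 56.7% in the Hmgn5 window, against a median of 52.7% over all windows. The windows hold 22, 45 and 23 CpG in the same order, against a median of 7. None holds TATAAA on either strand, which is in 13.6% of all windows.

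The values are log2 expression from RMA, which subtracts background, forces all arrays to a like distribution and combines the probes of a cluster, so a change in total RNA cannot be seen. A difference was counted where it was at least 2-fold, that is 1 on the log2 scale, in a cluster whose highest value reached 5.33, the median of the whole value table. That filter kept 11456 clusters, both genes among them. "Rose" and "fell" are used for such differences only. With 1 array per group the threshold is one of size, and a single difference has no replicate error of its own. Tests were run only on the genotype difference averaged over both treatments and on the IL-4 difference averaged over both genotypes. Both came from an additive limma fit that takes the IL-4 response as equal in KO and WT and leaves 1 residual degree of freedom. The array holds 5222 negative control rows, whose 95th percentile was 9.21, and between 23.1% and 27.7% of these rows differed at least 2-fold between 2 arrays. Array medians over all clusters lay between 5.10 and 5.15.

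In KO keratinocytes the Hmgb1 signal lay within the range of the control rows, while in WT keratinocytes it stood far above their 95th percentile. Its log2 value was 7.60 in KO with IL-4 and 14.17 in WT with IL-4. Untreated, it was 7.97 in KO and 14.71 in WT. The order of the 4 arrays was thus KO with IL-4, untreated KO, WT with IL-4 and untreated WT, with a gap between the genotypes far wider than that between the treatments. Both KO values lie below 9.21, and 787 of the 5222 control rows were brighter than Hmgb1 in KO with IL-4, as were 536 in untreated KO. In WT only 45 control rows were brighter with IL-4 and 32 untreated.

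**Figure D1:**
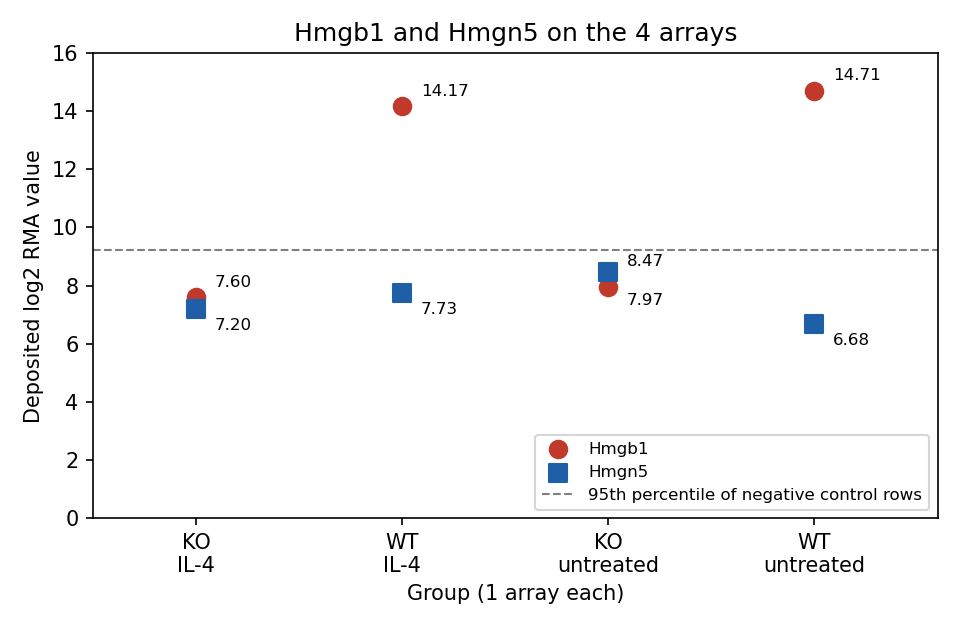
Deposited log2 RMA values (y axis) of Hmgb1 (circles) and Hmgn5 (squares) in the 4 groups (x axis), 1 array each, with a dashed line at 9.21, the level that 95% of control values stay under. Hmgb1 lies above the line in WT, at 14.17 and 14.71, and below it in KO, at 7.60 and 7.97, while Hmgn5 lies below it on all 4 arrays.

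KO minus WT, the log2 difference of Hmgb1 was -6.57 with IL-4, a 94.7-fold fall, and -6.74 untreated, a 107-fold fall. These 2 differences share no array. Hmgb1 has a symbol only through the authors' comparison of the IL-4 cultures. A 2-fold difference with IL-4 is thus a condition of its being named. The untreated fall is no such condition, and the average below uses both falls. In the additive limma fit over the 11456 filtered clusters, the KO minus WT difference of Hmgb1 averaged -6.65 with a standard error of 0.23 (adjusted p = 0.00182, lower in KO in 2 of 2 treatments). That fit called 2 clusters (0.0175%), both lower in KO, and 927 had an unadjusted p under 0.05. Its errors combine 1 degree of freedom of the cluster itself with 4.78 from the spread over all filtered clusters. Its p-values thus rest mostly on a spread between treatments pooled over clusters, and on none between mice. In the authors' deposited table of the IL-4 cultures, Hmgb1 has the largest fold change of all 898 clusters, 94.71. In these data it was also the largest fall of all 22206 clusters in both treatments. At least 2-fold falls in KO were seen in 3.12% of the filtered clusters untreated and 3.86% with IL-4. Among the negative control rows, 9 of 5222 fell as far with IL-4 and 2 did so untreated. Since the KO values sit among the control rows, the true size of the fall is uncertain. The position of the probes relative to the mutation is not stated in these sources, so the fall does not show which part of the transcript is missing. A lower signal in such bulk cultures cannot tell apart fewer cells that carry the transcript and less of it in each cell.

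A second cluster fell nearly as far as Hmgb1, with the second largest fall in both treatments. Cluster TC0100002025.mm.2 carries the symbols Gm2710 and Gm10075, both pseudogenes on chromosome 1 in RefSeq. Its log2 value was 7.41 in KO with IL-4 and 12.35 in WT with IL-4, and 6.25 in untreated KO and 12.66 in untreated WT. It was therefore bright in both WT cultures and under 9.21 in both KO cultures. KO minus WT was -4.94 with IL-4 and -6.41 untreated on the log2 scale, and -5.68 with a standard error of 0.38 in the additive limma fit (adjusted p = 0.0428), where it was the other cluster called. With IL-4 it differed from Hmgb1. IL-4 minus untreated was 1.16 in KO, between 2 values under 9.21, and -0.31 in WT. The fit takes this response difference, 1.47, as error. Pooling over clusters made the standard error smaller than the cluster's own spread gives. Hmgb1 and this cluster were the only 2 of the 11456 filtered clusters (0.0175%) with a fall of at least 16-fold in both treatments, and the count was also 2 without the level filter and under each of the 3 other scalings tried. RefSeq names no parent gene for these pseudogenes in the table used here, and whether their probes share sequence with Hmgb1 was not tested. The cluster was singled out after its values were seen.

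**Figure D2:**
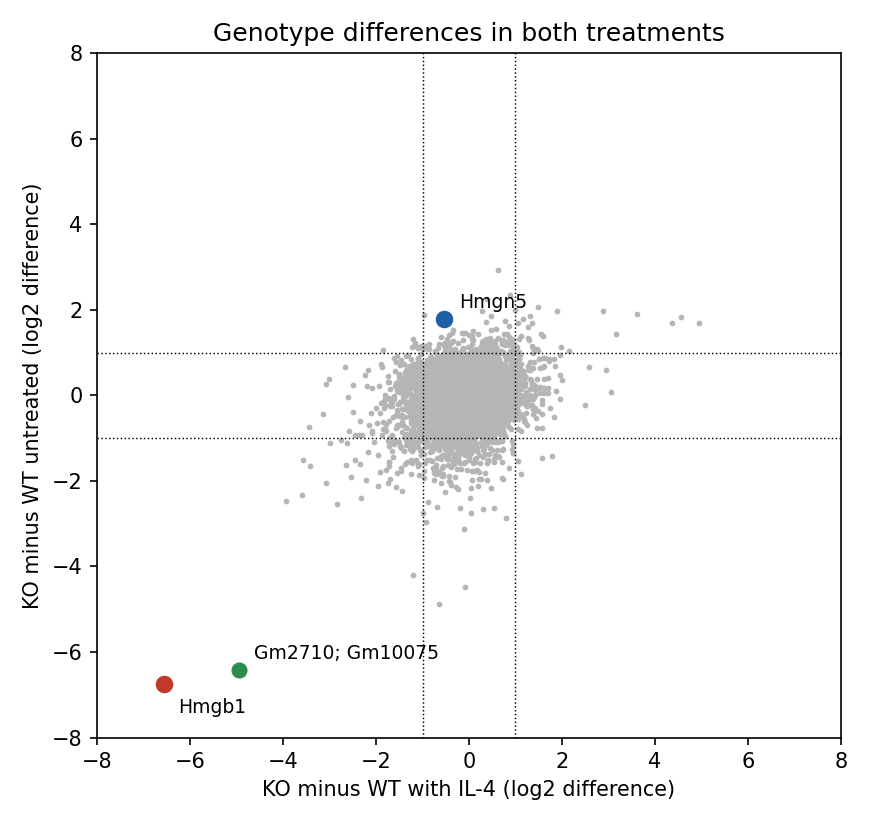
KO minus WT log2 difference with IL-4 (x axis) and untreated (y axis) for the 11456 filtered clusters (grey points), with Hmgb1, Hmgn5 and the cluster of Gm2710 and Gm10075 marked and dotted lines at 2-fold. Hmgb1 is the lowest point on both axes, at -6.57 and -6.74, and Hmgn5 lies at -0.53 with IL-4 and 1.79 untreated.

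IL-4 changed Hmgb1 by less than 2-fold in either genotype. IL-4 minus untreated was -0.37 in KO and -0.55 in WT. Averaged over the genotypes in the additive limma fit it was -0.46 with a standard error of 0.23 (adjusted p = 0.227), where 17.4% of filtered clusters were called. The KO difference lies between 2 values under 9.21. The WT difference, between values of 14.17 with IL-4 and 14.71 untreated, was matched or exceeded in the same direction by 18.2% of the filtered clusters. At least 2-fold differences with IL-4 were found in 18.6% of filtered clusters in KO (9.12% rose and 9.51% fell) and 20.3% in WT (10.9% rose and 9.39% fell). The IL-4 response in KO minus that in WT was 0.17, and 35.8% of filtered clusters had a positive difference at least this large. Responses differed at least 2-fold in 10.2% of filtered clusters, 4.42% in favour of KO.

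Hmgn5 was dim on all 4 arrays, and its pattern crossed over between the genotypes. Its log2 value was 7.20 in KO with IL-4 and 7.73 in WT with IL-4. Untreated, it was 8.47 in KO and 6.68 in WT. The highest array was thus untreated KO and the lowest untreated WT, and the 2 IL-4 arrays lay between them. The number of negative control rows brighter than Hmgn5 was 991 in KO with IL-4, 738 in WT with IL-4, 367 in untreated KO and 1241 in untreated WT. All 4 values are under 9.21, so the sizes below are uncertain. Hmgn5 was not low among the clusters, at percentiles from 60 in untreated WT to 71.4 in untreated KO. Only 24.4% of all cluster values exceed 9.21.

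**Figure D3:**
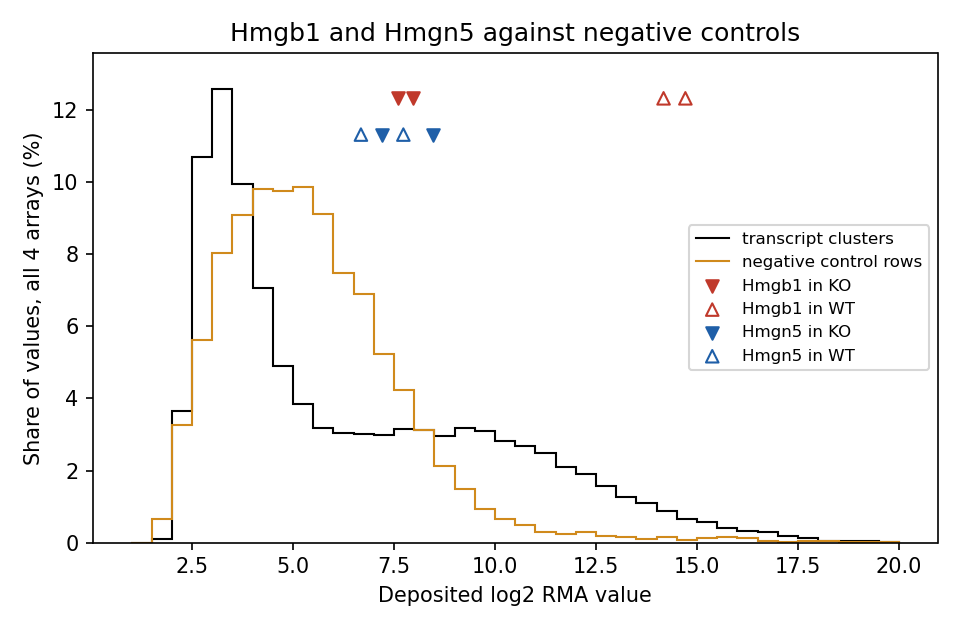
Share of values on all 4 arrays (y axis, %) by log2 RMA value (x axis) for transcript clusters (black) and negative control rows (orange), with the values of Hmgb1 and Hmgn5 as triangles (filled for KO, open for WT) at a free height. The KO values of Hmgb1 and all values of Hmgn5 lie within the bulk of the control rows, below 9.21, and the WT values of Hmgb1 lie in their sparse upper tail.

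Untreated, Hmgn5 rose in KO relative to WT by 1.79 on the log2 scale, a 3.46-fold difference. With IL-4 it was -0.53, which is under 2-fold and of the opposite sign. At least 2-fold rises in KO were found in 1.34% of filtered clusters untreated and 1.61% with IL-4. In all, 14 of the 11456 clusters (0.122%), Hmgn5 included, rose as far as 1.79 in untreated KO, and 13 of these were among the 2568 filtered clusters with a single symbol. Hmgn5 has its symbol through a low untreated WT value relative to WT with IL-4, and the same untreated WT array is the lower side here, so the naming favours this difference and the count is a description. Among the 2734 clusters whose mean level lay within 1 log2 of that of Hmgn5, 3 rose as far, and 5.45% differed at least 2-fold. The control rows varied more, since 169 of 5222 (3.24%) rose as far. Of the filtered clusters, 46 (0.402%) rose at least 2-fold in untreated KO and were lower in KO with IL-4 by any amount. Hmgn5 is 1 of the 46. In the additive limma fit its KO minus WT difference over both treatments was 0.63 with a standard error of 0.53 (adjusted p = 0.839), higher in KO in 1 of 2 treatments. That fit takes the IL-4 response as equal in KO and WT, while the responses of Hmgn5 were -1.28 and 1.04. It therefore cannot decide on a genotype difference of Hmgn5 within a treatment.

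The IL-4 response of Hmgn5 ran in opposite directions. IL-4 minus untreated was -1.28 in KO, a 2.42-fold fall, and 1.04 in WT, a 2.06-fold rise. In the authors' deposited table of the WT cultures the fold is -2.06, where the minus sign means higher with IL-4, and the table ends at 2-fold. It is through this row alone that Hmgn5 has a symbol, so its WT rise is a condition of its being named and no finding. The WT rise came to 0.93 after cyclic loess and 0.99 after quantile normalization, just under 2-fold, while the KO fall stayed between -1.24 and -1.37 under the 3 other scalings. Falls in KO and rises in WT were common with IL-4, at 9.51% and 10.9% of filtered clusters. Both together were found in 2 of 11456 clusters (0.0175%), Hmgn5 and Ifitm3, a count that includes the WT rise through which Hmgn5 was named and is a description only. Rises in both genotypes were found in 661 clusters (5.77%). Ifitm3, an interferon-induced membrane protein that hinders virus entry, stood at 10.89 in KO with IL-4, 13.56 in WT with IL-4, 12.18 in untreated KO and 11.53 in untreated WT, well above the control rows.

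The IL-4 response in KO minus that in WT was -2.32 for Hmgn5. A difference at least this far in favour of WT was found in 21 of 11456 clusters (0.183%), in 6 of the 2734 clusters of similar level, and in 248 of the 5222 control rows (4.75%). At least 2-fold differences in favour of WT were found in 5.81% of filtered clusters. The response difference includes the WT rise through which Hmgn5 was named, so the naming favours it and these counts are a description only. This response difference and the genotype differences above are built from the same 4 values and are not separate observations. The 2 sets of arrays, KO and WT, share none with each other.

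**Figure D4:**
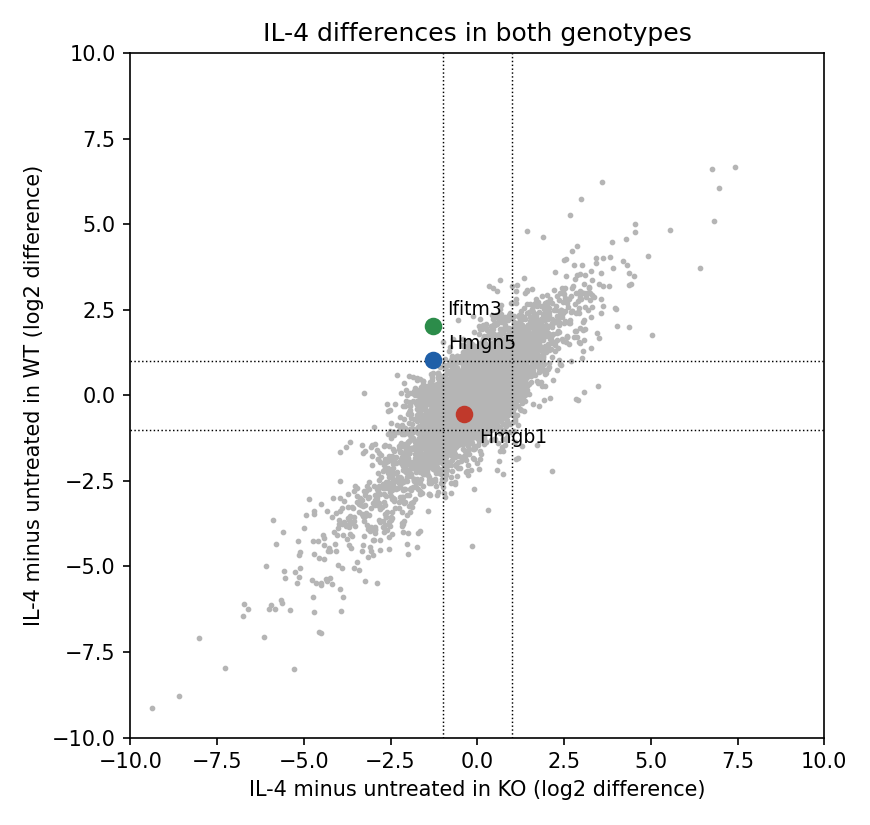
IL-4 minus untreated log2 difference in KO (x axis) and WT (y axis) for the 11456 filtered clusters (grey points), with Hmgb1, Hmgn5 and Ifitm3 marked and dotted lines at 2-fold. Hmgn5, at -1.28 in KO and 1.04 in WT, and Ifitm3 are the only points in the upper left field beyond both lines.

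Named genes whose 4 values ran most like those of each gene were ranked by Pearson's r over the 4 arrays, among 2567 named clusters that passed the level filter and spanned at least 2-fold. With 4 points r is a description only, and the points share their arrays. For Hmgb1 the genes with the highest r included, between 0.994 and 0.998, Htr1b, a serotonin receptor, the aminoacylase gene Acy3, the tubulin gene Tubb3 and Klk10, a kallikrein-related peptidase. As the choice by r makes likely, these 4 were lower in KO under both treatments and changed little with IL-4. KO minus WT, they differed by -1.01 to -2.84 with IL-4 and -0.86 to -2.54 untreated. Their IL-4 differences in KO and WT lay between -0.34 and 0.05. Htr1b stood at -2.84 with IL-4 and -2.54 untreated, KO minus WT. All values of Htr1b and Acy3 were under 9.21, so the sizes of their differences are uncertain. The Tubb3 difference with IL-4 came to -0.92 after quantile normalization and -0.97 after cyclic loess. Klk10, which was bright, stood at 11.58 in KO with IL-4 and 12.84 in WT with IL-4, and at 11.53 in untreated KO and 12.79 in untreated WT. Of the 2567 clusters, 7 had r over 0.99. By distance between centred values the nearest were Olr1, Htr1b, Slc7a3, Gria3 and C1s1, at distances of 3.92 to 4.39 log2, so that even the nearest was far from Hmgb1 in size.

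For Hmgn5 no named gene had r over 0.95. The highest r belonged to Fanci (0.905), a gene of the Fanconi DNA repair pathway, Tpbg (0.892), a membrane glycoprotein, Bcl10 (0.885), an adaptor of NF-kB signalling, AY358078 (0.876) and Cep55 (0.874), which acts in the last step of cell division. Fanci, Tpbg, Bcl10 and Cep55 were also 4 of the 5 nearest by distance, with Shisa9. Cep55 stood at 8.92 in KO with IL-4 and 9.87 in WT with IL-4, and at 9.73 in untreated KO and 8.56 in untreated WT. As the choice by r makes likely, all 5 genes were higher in untreated KO and lower in KO with IL-4. Their IL-4 minus untreated differences in KO, -0.41 to -0.81, were all under 2-fold, while that of Hmgn5 was -1.28.

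The chromosomal surroundings of both genes were examined in the same arrays. Of the 10 protein-coding genes on each side of Hmgb1, 5 have a symbol in the tables. Their KO minus WT differences untreated lay between -0.87 (Fry) and 0.52 (Hsph1), none at least 2-fold. With IL-4 only Flt1, the receptor gene for vascular endothelial growth factor, passed it, at -3.43. Neighbours have symbols only through a 2-fold difference in a deposited comparison, so the naming settles which passed 2-fold with IL-4. Flt1 was under 9.21 in KO with IL-4, at 6.25, and Fry was under it on all 4 arrays. Over chromosome 5 as a whole, 4.14% of 724 filtered clusters differed at least 2-fold between KO and WT with IL-4 and 3.04% untreated, against 5.47% and 4.46% of all filtered clusters. Of the 10 genes on each side of Hmgn5, 3 have a symbol, and of these Rps6ka6, a kinase gene, fell by 1.09 in untreated KO while Gpr174 and 2610002M06Rik differed by less than 2-fold. All values of these 3 genes were under 9.21. On chromosome X, 6.18% of 356 clusters differed with IL-4 and 3.65% untreated. The 20 chromosomes other than Y ranged from 3.69% to 10.1% with IL-4 and from 2.64% to 6.56% untreated.

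Relatives of the pair were looked up in a list of 31 HMG genes and genes with an HMG box. Only 5 have a symbol in the tables, and those are Hmgb1, Hmgn5, Sox4, Sox9 and Bbx. The closest relatives, Hmgb2, Hmgb3, Hmgn1, Hmgn2, Hmgn3, Hmga1 and Hmga2, are in neither table. The deposited comparison of WT cultures holds all 2610 clusters with a 2-fold difference, and the comparison of IL-4 cultures holds 898 of 899. A relative that the array measures under its own symbol thus differed by less than 2-fold in those 2 comparisons, with at most that 1 cluster excepted, and the other comparisons cannot be named for it. Sox9, a transcription factor of hair follicle and epidermal stem cells, stood at 15.32 in KO with IL-4 and 16.34 in WT with IL-4, a fall of 1.02, and differed by -0.29 untreated. Its WT value exceeds 16, the log2 limit of a 16-bit scanner count, so its size is uncertain. Sox4, a related factor, rose with IL-4 by 2.27 in WT and lay on the edge of the 2-fold threshold in KO. Bbx, an HMG box gene, differed with IL-4 by 0.92 in KO and rose by 1.02 in WT, though by 0.96 after quantile normalization and 0.88 after cyclic loess. Over the 5 genes 1 rose (Hmgn5) and 1 fell (Hmgb1) in untreated KO, and 2 fell in KO with IL-4, Hmgb1 and Sox9. Over all filtered clusters 1.34% rose and 3.12% fell untreated and 3.86% fell with IL-4, but the 5 have symbols only through a 2-fold difference in a deposited table, so their count is a description.

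Histones, the proteins that HMGN5 and HMGB1 meet on the nucleosome, had 18 of 44 listed genes in the tables. In KO with IL-4, 15 of the 18 fell relative to WT and Hist1h1c rose, with a median of -1.22 against -0.02 over all filtered clusters. Of all filtered clusters, 3.86% fell and 1.61% rose. The 15 had their symbols only through a 2-fold difference in this same comparison, so the count describes them and supports nothing. In KO with IL-4, 7 of the 15 were under 9.21, and so were 2 in WT with IL-4, so the sizes of these falls are uncertain. Untreated, a comparison that shares no array with it, the same 15 lay on the other side, between 0.09 and 0.79, and none passed 2-fold. For scale, 39.8% of the 442 clusters that fell in KO with IL-4 were higher in untreated KO. The largest fall was that of Hist1h3e, a core histone H3 gene, at 11.72 in KO with IL-4 and 13.65 in WT with IL-4, against 13.38 in untreated KO and 13.17 in untreated WT. Hist2h4, a core histone H4 gene, stood at 8.86 in KO with IL-4 and 10.43 in WT with IL-4, and at 11.47 in untreated KO and 10.68 in untreated WT. The linker histone genes were divided. Hist1h1c rose by 1.04 in KO with IL-4, at 9.82 in KO and 8.78 in WT, while Hist1h1a (-1.07) and Hist1h1b (-1.10) fell.

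IL-4 minus untreated, the 15 histone genes fell in KO, from -1.11 to -2.60, and stayed between -0.58 and 0.66 in WT. Over all filtered clusters 9.51% fell with IL-4 in KO. The KO and WT differences each use an IL-4 array through which the genes were named. None of the 15 is in the deposited comparison of WT cultures, which holds every cluster with a 2-fold difference. The naming thus settled that they stayed under 2-fold in WT, and these values are a description only. Hmgn5 had the same signs as these 15 genes in both genotype comparisons, with a larger value untreated and a smaller one with IL-4. Copies of histone genes are nearly identical, so the array may not tell them apart and the 15 genes are not separate observations. The differences of Hist1h1a, Hist1h3c and Hist1h4a came just under 2-fold in at least 1 other scaling, down to -0.95 for Hist1h3c.

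**Figure D5:**
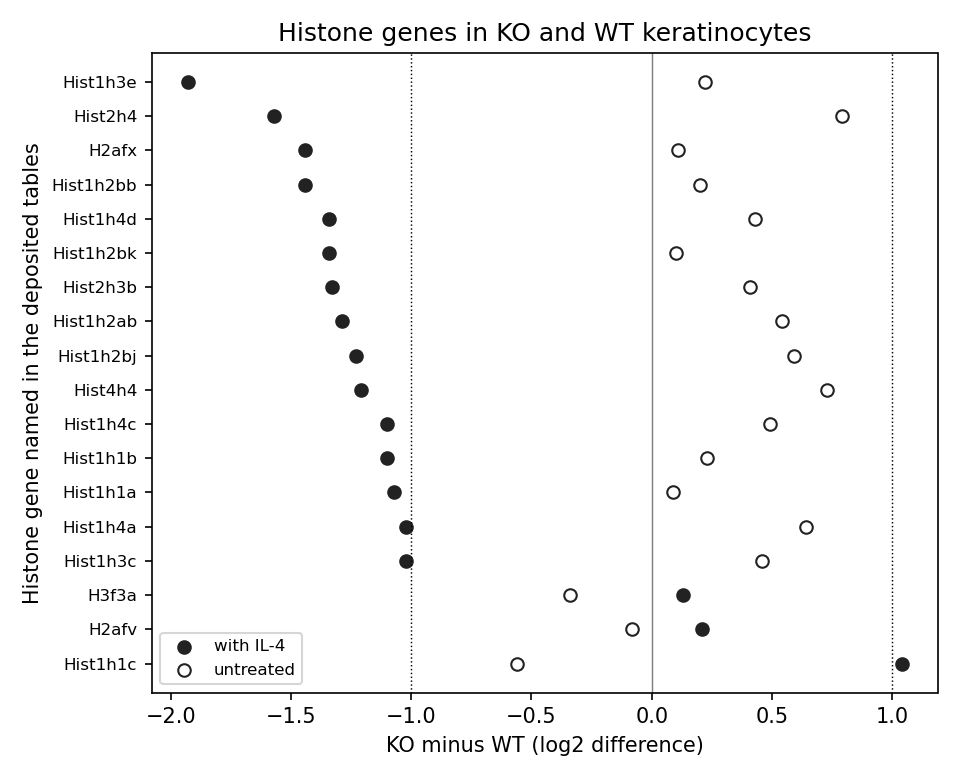
KO minus WT log2 difference (x axis) with IL-4 (filled) and untreated (open) of the 18 histone genes named in the deposited tables (y axis), with dotted lines at 2-fold. The 15 genes that fell with IL-4, from -1.02 to -1.93, lie between 0.09 and 0.79 untreated.

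Chromatin architecture and histone chaperone genes had 6 of 40 listed genes in the tables. Anp32a, an acidic chaperone, fell by 1.19 in KO with IL-4, at 8.29 in KO and 9.48 in WT, and Top2a, a DNA topoisomerase of dividing cells, fell by 1.02, a log2 difference that was -0.97 after quantile normalization and -0.99 after cyclic loess. Satb1, a chromatin organiser, fell by 1.89 in untreated KO, between 2 values under 9.21. The chaperone gene Chaf1b rose with IL-4 by 1.53 in WT and differed by 0.43 in KO. The remodelling gene Hells rose by 1.04 in WT, though by 0.96 after quantile normalization and 0.91 after cyclic loess, and differed by -0.17 in KO. Over the 6 genes the median KO minus WT difference was -0.56 with IL-4 and 0.08 untreated, against -0.02 and -0.01 over all filtered clusters. Anp32a and Top2a have symbols only through their falls in KO with IL-4. The other 4 have them only through the WT IL-4 response, so these medians are a description only.

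Receptors and partners of extracellular HMGB1 had 9 of 25 listed genes in the tables, 6 of them through the WT IL-4 response alone. Ager and Tlr4 are not among them. Tlr2 stood at 11.02 in KO with IL-4 and 12.04 in WT with IL-4, a fall of 1.02, and at 10.45 in untreated KO and 10.64 in untreated WT. Ptprz1, a receptor phosphatase, fell in KO under both treatments, by a log2 difference of -1.78 with IL-4 and -1.75 untreated. Cxcr4, a chemokine receptor, differed by 1.10 with IL-4, but its values, 4.87 in KO and 3.77 in WT, were too low for the level filter. Its ligand Cxcl12, which binds HMGB1, differed by -0.44 with IL-4 and 0.69 untreated. Il1r1, the interleukin-1 receptor, rose with IL-4 by 1.63 in KO and by 2.30 in WT. Thbd (thrombomodulin), which binds HMGB1, stood at 5.58 in KO with IL-4, 6.41 in WT with IL-4, 11.17 in untreated KO and 10.41 in untreated WT, a fall with IL-4 in both genotypes. Apart from Tlr2, Ptprz1 and Cxcr4, no gene of the 9 differed at least 2-fold between KO and WT, and the median difference was -0.44 with IL-4 and 0.15 untreated. Over all filtered clusters 5.47% with IL-4 and 4.46% untreated differed that far, with medians of -0.02 and -0.01. Tlr2, Ptprz1 and Cxcr4 are the genes of the list that the authors' comparison of the IL-4 cultures names. The other 6 are not in it, so the way of naming settles which genes passed 2-fold with IL-4. The count and the medians are a description only.

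Genes of HMGB1 release and modification had 8 of 27 listed genes in the tables. Of these, 5 fell in KO with IL-4, where 3.86% of all filtered clusters fell. All 5 are in the authors' table of that comparison. Casp1, the inflammasome protease, stood at 4.75 in KO with IL-4 and 7.28 in WT with IL-4, and at 6.14 in untreated KO and 8.04 in untreated WT. Its adaptor Pycard fell in KO (-1.26 with IL-4 and -1.06 untreated), and so did Gsdmc, a pore-forming gasdermin (-1.36 and -1.17). Casp4 (-1.53) and Ripk3 (-1.23), a kinase of necroptosis, fell with IL-4, and stood at -0.70 and -0.83 untreated. Of the 5, 3 fell in untreated KO as well, where 79 of the 442 clusters that fell with IL-4 (17.9%) did. With so few genes, picked from a list through their falls with IL-4, this count is a description only. Casp1, Casp4 and Pycard were under 9.21 on all 4 arrays. Gsdmc was under it with IL-4, at 4.67 in KO and 6.04 in WT. Ripk3 exceeded it only in WT with IL-4, at 10.12. Mlkl, the effector of necroptosis, rose with IL-4 by 2.25 in KO and by 1.29 in WT.

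The cells' label was checked against markers as far as symbols allow. All 7 listed suprabasal keratinocyte markers were found, all of them through at least 2-fold lower values with IL-4 in WT, and they fell with IL-4 in KO too. The log2 of their summed level was 15.25 in KO with IL-4, 15.10 in WT with IL-4, 19.26 in untreated KO and 19.31 in untreated WT. The untreated sums rest on Krt1, Flg and Krtdap, whose untreated values all exceed 16, so their size is uncertain. Krt10, a suprabasal keratin, rose in KO by 1.90 with IL-4 and by 1.97 untreated, and Lor (loricrin) rose by 1.05 with IL-4 and fell by 1.53 untreated. Of 7 basal markers only Itgb4 has a symbol, at 14.96 to 16.59. Melanocyte markers had 5 of 8 members, with a summed log2 level of 13.65 in KO with IL-4, 12.09 in WT with IL-4 and 13.13 in both untreated groups. Fibroblast markers had 3 of 12, with a summed log2 level of 12.77 in KO with IL-4 and 11.03 in WT with IL-4, and of 12.82 in untreated KO and 11.94 in untreated WT. The fibroblast sums rest on Vim and Sparc, which have symbols only through a 2-fold difference between KO and WT with IL-4. Dct, Tyrp1 and Kit of the melanocyte markers are in that comparison too. Markers without a 2-fold difference could not be read, so both sums are a description only. The endothelial marker Kdr, 1 of 4, was below the level filter on every array, and none of 8 immune or 3 Merkel cell markers has a symbol in the tables, so their levels were not read here. With IL-4 the single markers did not all move one way. Of the fibroblast markers, Vim (1.98) and Sparc (1.71) rose in KO relative to WT and Fbln1 (-1.24) fell, and of the melanocyte markers Dct (1.56), Tyrp1 (1.62) and Kit (1.46) rose while Pmel (0.68) and Tyr (0.08) differed by less than 2-fold. Their part in the results above was not tested.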

How the data were processed

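Total RNA of 4 keratinocyte cultures was labelled and hybridised to Clariom S Mouse arrays, 1 per group. The authors deposited log2 values which, per the submitters' processing notes, came from RMA in Affymetrix Expression Console 1.4. They also deposited 2 comparison tables with log2 values and a signed fold score (positive where the first sample is higher), with annotation na36 on mm10 per the file headers. The tables matched the value table to within 0.0142 and 0.0679. Samples were grouped by their titles. Differences between arrays were computed in Python 3.11.15 with pandas 2.3.3, and the scalings (median centring, quantile, cyclic loess) with limma 3.58.1 in R 4.3.3. The counting and the limma fit were tested on simulated data. With 1 array per group no single difference was tested. An additive limma fit of genotype and treatment, with eBayes and Benjamini-Hochberg adjustment over 11456 clusters and 1 residual degree of freedom, was added after seeing the data. Gene symbols came only from the tables. Named were the 2 genes, the 5 most alike by r and by distance, their neighbours, and members of 5 gene lists and 7 marker lists. Some genes that this rule selects are not reported here. The members and lists were chosen with earlier results of these data known. The backgrounds of control rows and of clusters of similar level were chosen after seeing the data. Promoter windows came from RefSeq, build GRCm38.p6, and their strand was checked on 1683 overlapping pairs. The number of arrays limits the precision.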

Additional observations from a re-analysis of the deposited data

Results flagged for a closer look

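The genes below moved at least 2-fold in opposite directions under the same contrast in 2 groups, with 1 array per group, and the difference itself was not tested. For Hmgn5 the IL-4 response in KO minus that in WT was -2.32, from -1.28 in KO and 1.04 in WT. For Ifitm3 it was -3.32, from -1.29 in KO and 2.04 in WT. For the amino acid transporter Slc7a3 it was 2.99, from 1.17 in KO and -1.82 in WT, and 2 of its 4 values are under 9.21. For Lor, KO minus WT with IL-4 minus the same difference untreated was 2.58, from 1.05 with IL-4 and -1.53 untreated, and 3 of its 4 values are under 9.21.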

How the results depend on the processing

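With 1 array per group no replicate could be left out. The fit over both treatments sets KO against WT within each treatment, and it called Hmgb1 (-6.65) but not Hmgn5 (0.63). For Hmgn5, whose IL-4 responses differ in sign, the fit cannot decide on a genotype difference within a treatment. The 10 differences reported for Hmgb1 and Hmgn5 kept their direction under median centring, quantile normalization and cyclic loess, and moved by less than 0.38 log2, the spread of a difference of 2 arrays estimated from the response differences (0.53 over the square root of 2). The WT IL-4 rise of Hmgn5 passed below 2-fold with quantile normalization (0.99) and cyclic loess (0.93). The authors' deposited tables gave -6.57 for Hmgb1 in KO with IL-4 and 1.05 for Hmgn5 with IL-4 in WT, and hold neither gene in the other comparison. Of 167 further differences of at least 2-fold, 13 came below 2-fold under some scaling and none changed sign. Clusters called between KO and WT numbered 627 with IL-4 and 511 untreated. They became 321 and 250 with the filter at the control rows' 95th percentile, 2237 and 1935 at 1.5-fold, and 52 and 39 at 4-fold. For IL-4 minus untreated the counts were 2135 in KO and 2326 in WT, and 1374 and 1465 with that filter, 4347 and 4499 at 1.5-fold, and 591 and 692 at 4-fold. The response difference was called in 1172 clusters, in 1943 without a level filter, in 564 with the stricter filter, in 3365 at 1.5-fold and in 93 at 4-fold. The cause of these moves is the filter or threshold itself. Clusters that fell in KO and rose in WT with IL-4 numbered 2, and 4 without the filter, 2 with median centring, 2 with cyclic loess and 1 with quantile normalization. Hmgn5 was in neither of the last 2 sets, and with cyclic loess Ifitm3 was joined by Socs2, named after its values were seen. Of the 5 genes most like Hmgb1 by r, 1 was among the 5 nearest by distance, and 4 for Hmgn5. All Hmgn5 values and the KO values of Hmgb1 lie under the control rows' 95th percentile, which limits what their sizes can show.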
